A study of Rattus norvegicus with 6 samples.

Results

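Notch receptors, their ligands and their transcriptional effectors were followed in cultured nucleus pulposus cells, the cells of the soft core of the intervertebral disc. The members were taken by gene name: the receptors Notch1, Notch2 and Notch3, the ligands Jag1, Jag2 and Dll1, and the effectors Hes1, Hey1, Hey2 and Heyl. All 10 had a row in the deposited gene table of 19088 genes, and all 10 passed the filter on low counts that left 14775 genes for testing. RNA came from primary cells of rats of the strain labelled SD, grown in medium with 10% fetal bovine serum. Recombinant Sonic hedgehog (rShh), the secreted ligand of the Hedgehog pathway, was given at 200 ng/ml in DMSO for 48 h to 3 samples. Another 3 samples received DMSO alone for 48 h and are called Control. The series asked how rShh changes gene expression in these cells. Whether the replicates are independent cultures or animals is not in the labels, and the tests therefore gauge sample-to-sample spread that could be technical only.

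Notch signalling passes between touching cells. A Jagged or Delta-like ligand on a cell pulls on a Notch receptor of its neighbour, ADAM proteases and then gamma-secretase cut the receptor, and the freed intracellular part enters the nucleus. There it joins the DNA-binding protein Rbpj and a Mastermind-like coactivator and switches on genes of the Hes and Hey families, which encode basic helix-loop-helix repressors. Without the receptor fragment, Rbpj holds the same genes silent together with corepressors. In cartilage and disc the pathway is known for its part in the choice between progenitor growth and matrix-making differentiation.

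The 250 bases upstream of the start site are shown for members that held TGGGAA there, a core that Rbpj is known to bind. These letters can thus be seen beside the values of the same genes. RefSeq promoters of build GRCr8 were matched by symbol for 9 of the 10 members, all but Hey1. The core TGGGAA was searched on both strands, as was the longer GTGGGAA, which contains the core. Capitals mark the core or its reverse complement. The stretches are Hes1 (chr11:84213046-84213295, minus strand), Hey2 (chr1:28640850-28641099, plus strand) and Dll1 (chr1:64993275-64993524, minus strand), each written 5′ to 3′ along the gene.
Hes1: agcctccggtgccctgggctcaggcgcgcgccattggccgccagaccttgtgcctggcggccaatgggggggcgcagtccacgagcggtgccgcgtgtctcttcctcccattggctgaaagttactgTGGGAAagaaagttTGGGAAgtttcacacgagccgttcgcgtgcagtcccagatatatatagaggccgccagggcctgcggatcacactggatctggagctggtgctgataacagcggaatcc
Hey2: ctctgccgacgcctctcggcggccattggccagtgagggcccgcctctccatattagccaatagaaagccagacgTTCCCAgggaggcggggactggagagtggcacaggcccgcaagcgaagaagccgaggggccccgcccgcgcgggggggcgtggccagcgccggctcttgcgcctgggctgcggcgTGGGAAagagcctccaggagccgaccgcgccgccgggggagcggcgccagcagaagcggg
Dll1: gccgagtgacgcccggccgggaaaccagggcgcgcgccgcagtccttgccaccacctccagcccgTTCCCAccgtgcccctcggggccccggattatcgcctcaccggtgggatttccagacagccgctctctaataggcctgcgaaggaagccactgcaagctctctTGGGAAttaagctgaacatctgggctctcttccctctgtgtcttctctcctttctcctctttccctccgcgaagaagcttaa
In Hes1 the core lay at 123 to 118 and at 109 to 104 bases before the start, both on the strand of the gene, with 8 bases between them. In Hey2 it lay at 60 to 55 on the strand of the gene and at 175 to 170 on the other strand. In Dll1 it lay at 82 to 77 on the strand of the gene and at 185 to 180 on the other strand. Each of these 3 stretches held 2 cores, of which 1 was part of the longer GTGGGAA. Of 33469 promoter stretches of the same length in the table, 22.1% held the core at least once, 2.71% held it at least 2 times and 5.27% held the longer form. The stretches of Notch1, Notch2, Notch3, Jag1, Jag2 and Heyl had no match to TGGGAA or GTGGGAA. Other forms of the site were not searched in any stretch. A match is a description of the sequence only, and binding was not measured.

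Control libraries held 50758195 to 55501124 counts over genes and rShh libraries 65116846 to 70031072, so a gene had more counts in the rShh group at the same level. Mitochondrial transcripts took 1.97% to 2.28% of counts in Control and 3.25% to 3.36% in rShh. The Y chromosome genes Ddx3, Eif2s3y and Kdm5d had 0 counts in every Control library, while each rShh library held 42.1 to 43.6 FPKM of them summed with Ddx3y, so this difference between the groups and the ligand cannot be told apart in any comparison here. Ptch1, the Hedgehog receptor and a known target of the pathway, was at 12.5 ± 1.65 CPM in Control and 32.6 ± 1.61 in rShh (mean ± SD, n = 3; CPM is the count scaled to a common library size). Of 11 nucleus pulposus markers tested 6 rose and 4 fell, beside 31.5% and 28.8% of all genes tested. Those found summed to 143 to 156 FPKM in Control and 255 to 257 in rShh. The largest gains in that sum were of Acan (mean 6.80 to 71.0 FPKM), Hif1a (16.5 to 53.5) and Ca3 (9.32 to 31.5). Among those that fell, Cd24 went from 51.2 ± 3.80 to 15.4 ± 1.09 CPM and Col2a1 from 1.61 ± 0.109 to 0.107 ± 0.139. Krt18 had at most 9 counts in a library. Krt8 fell from 12.6 ± 0.771 to 2.11 ± 0.243 CPM and Acan rose from 56.5 ± 7.97 to 586 ± 14.5. Brachyury (looked up as T and Tbxt) and Krt19 had no row. None of 3 macrophage markers tested passed (summed level 5.34 to 6.99 FPKM in Control, 6.23 to 7.75 in rShh). Most of that sum was Cd14, while Csf1r reached at most 0.0551 FPKM and Cd68 at most 0.453 in any library. The 2 epithelial markers found summed to at most 0.144 FPKM. Of 4 annulus fibrosus markers 2 rose (Thbs4 and Mkx) and 2 fell (Scx and Col1a1), beside the same shares of all genes. Their sum (4959 to 5356 FPKM in Control, 2408 to 2452 in rShh) was mostly Col1a1, at 4860 to 5221 and 2347 to 2391. In bulk RNA, fewer cells of a type and less RNA per cell cannot be told apart.

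The comparison of rShh with Control divided the Notch genes. Notch1 and Hes1 fell and Hey2 rose, while the most abundant receptor and ligand, Notch2 and Jag1, stayed within 1.13-fold and 1.09-fold of Control. By edgeR's quasi-likelihood test with Benjamini-Hochberg adjustment over all genes, at a threshold of 0.05, 3 of the 10 members rose (Notch2, Notch3 and Hey2), 2 fell (Notch1 and Hes1) and 5 did not pass (Jag1, Jag2, Dll1, Hey1 and Heyl). Among all genes tested 60.3% passed, 31.5% higher and 28.8% lower in rShh, so the members' share of 50.0% is close to that of all genes. The members' median log2 change was 0.03 and that of all tested genes 0.01. The 3 values of a group lay entirely above those of the other for 6 members, beside 68.1% of all genes tested. Without rShh replicate 3 only Hey2 rose, and without Control replicate 2 Jag2 and Dll1 passed as well, which made 5 that rose.

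**Figure D1:**
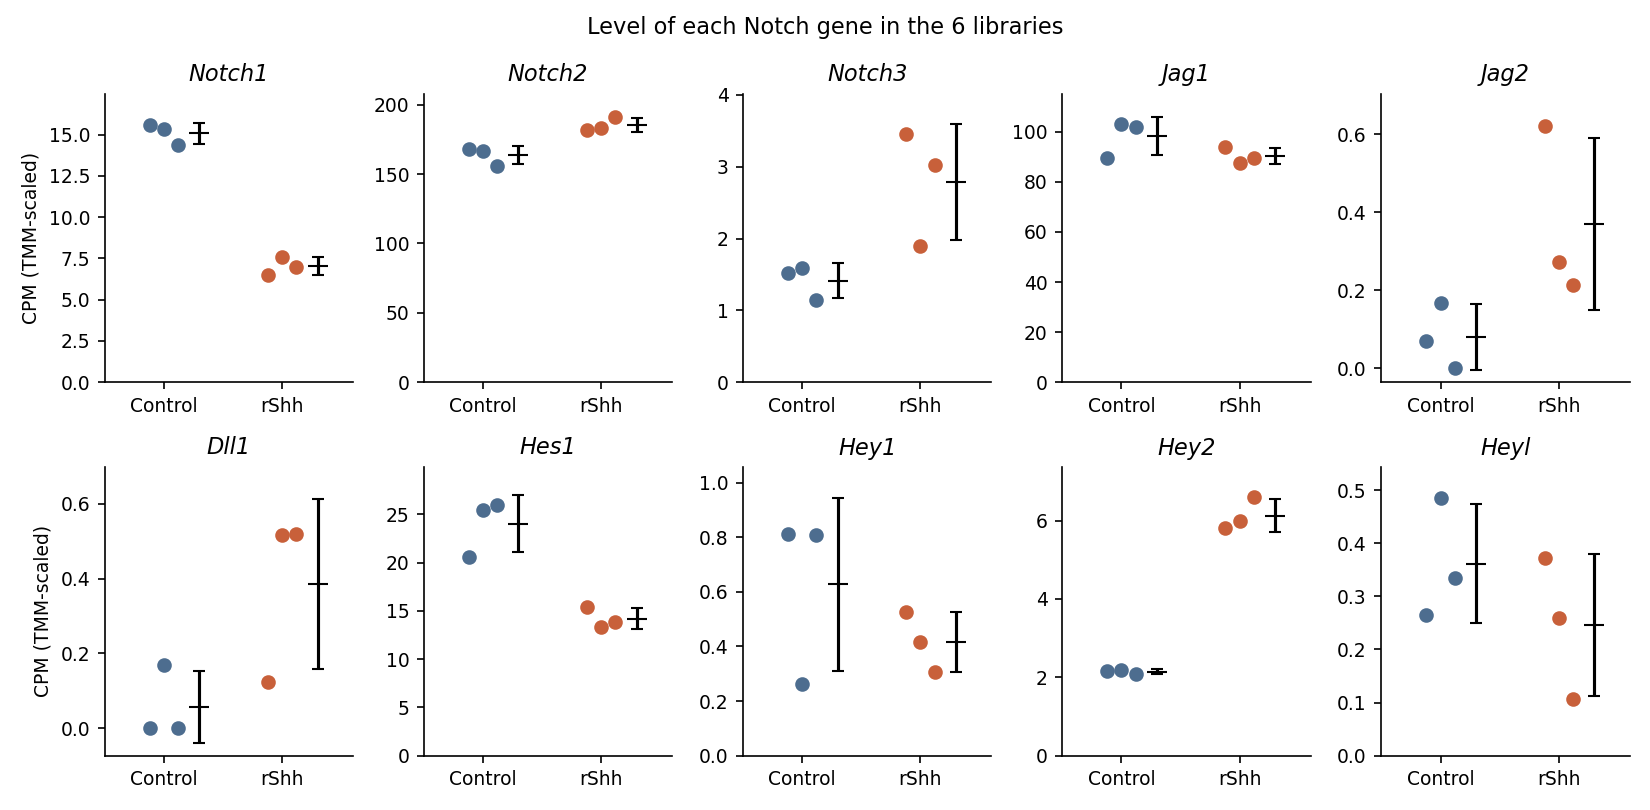
Level of each member in every library, as CPM after TMM scaling, with 3 points per group and the mean ± SD beside them; each panel has its own linear axis. Notch1 and Hes1 are lower and Notch2, Notch3, Jag2 and Hey2 higher in all 3 rShh libraries than in any Control library, while the groups overlap for Jag1, Dll1, Hey1 and Heyl.

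Among the receptors, Notch1 fell. Notch1 (ENSRNOG00000019322, chromosome 3, 3905453 to 3951025, minus strand, in the coordinates of the deposited table) is the receptor best known from cell fate choices in development. It was at 15.6, 15.3 and 14.4 CPM in Control and at 6.51, 7.60 and 7.00 in rShh. All 3 Control libraries lay at about the same level, and all 3 rShh libraries lay well below them. The mean was 2.15-fold lower in rShh (log2 change -1.10, SE 0.11, edgeR adjusted p = 1.70e-05), with a 95% interval of -1.35 to -0.85.

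Notch2 (ENSRNOG00000018835, chromosome 2, 200187179 to 200320215, plus strand) was the receptor with the most RNA. It was at 168, 167 and 156 CPM in Control and at 182, 183 and 191 in rShh. The groups did not overlap, but the step between them was small beside that of Notch1. The mean rose 1.13-fold (log2 change 0.18, SE 0.05, edgeR adjusted p = 0.0148). The call was lost without rShh replicate 3 (edgeR adjusted p = 0.0776) and with upper-quartile scaling (edgeR adjusted p = 0.0940).

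Notch3 (ENSRNOG00000004346, chromosome 7, 14138495 to 14189688, minus strand), the receptor known from vascular smooth muscle and pericytes, was scarce. Control replicates 1 to 3 had 86, 85 and 58 counts, and those of rShh had 223, 132 and 198. Every rShh library lay above every Control library, and rShh replicate 2 lay closest to them. The mean rose 1.97-fold, 1.42 ± 0.238 against 2.79 ± 0.806 CPM (log2 change 0.98, SE 0.29, edgeR adjusted p = 0.0139). Without rShh replicate 1 or 3 the edgeR adjusted p was 0.0703 or 0.0512. Of 9 markers of mural cells, the cells that wrap vessels, 6 rose and 2 fell, beside 31.5% and 28.8% of all genes tested. Their summed level ran from 5828 to 8132 FPKM in Control and from 7065 to 7394 in rShh. Most of that sum was Tagln and Acta2, with means of 4442 and 2563 FPKM in Control and 3626 and 3204 in rShh. Rgs5, a marker of pericytes, had 0 counts throughout Control and 84 to 89 per rShh library. Myh11, the smooth muscle myosin heavy chain, rose from 24.4 ± 3.25 to 263 ± 12 CPM, while Pdgfrb rose only 1.12-fold. The 2 that fell were Tagln, from 6666 ± 1041 to 5403 ± 239 CPM, and Mcam, from 192 ± 26.4 to 139 ± 4.72. Acta2 did not pass (edgeR adjusted p = 0.0507). The part of these markers in the change of Notch3 was not tested.

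The balance between receptors was also read within each library, where scaling between libraries plays no part. The deposited FPKM values (fragments scaled by transcript length and library size) allow genes of different length to be compared. The FPKM ratio of Notch2 to Notch1 was 8.88, 8.97 and 8.95 in Control, and in rShh it was 23.0, 19.9 and 22.5. The Control libraries were nearly alike, and every rShh library had more than 2-fold their ratio. The means were 8.93 ± 0.0444 and 21.8 ± 1.68, a 2.44-fold difference. The two-sided exact permutation p of 0.1 (adjusted over the 2 ratios tested, 0.1) is the smallest that 3 samples against 3 allow. Notch1 and Notch2 each already separated the groups, in opposite directions. The p of their ratio was thus fixed in advance and adds no support to their calls. With Notch4 counted in, Notch1 made up 9.85% ± 0.0566 of the summed receptor FPKM in Control and 4.17% ± 0.342 in rShh. Notch2 made up 88.0% ± 0.222 and 90.5% ± 0.364, so it was the main receptor transcript in both groups.

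**Figure D2:**
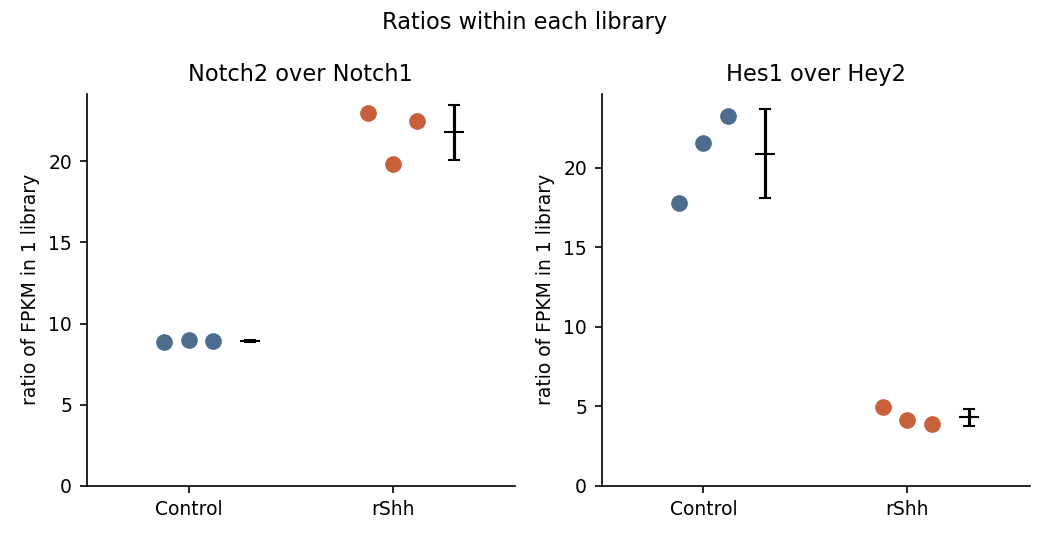
Ratio of FPKM values within each library for Notch2 over Notch1 (left) and Hes1 over Hey2 (right), with 3 points per group and the mean ± SD beside them, on linear axes from 0. The Notch2 to Notch1 ratio is 8.88 to 8.97 in Control and 19.9 to 23.0 in rShh; the Hes1 to Hey2 ratio is 17.8 to 23.3 in Control and 3.90 to 4.92 in rShh.

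Ligand RNA was almost entirely that of Jag1 in both groups. Jag1 (ENSRNOG00000007443, chromosome 3, 130079361 to 130114770, minus strand) was at 89.6, 103 and 102 CPM in Control and at 93.7, 87.6 and 89.4 in rShh. The groups overlapped, with Control replicate 1 among the rShh values. Its log2 change of -0.12 (SE 0.07) did not pass (edgeR adjusted p = 0.144), and its 95% interval of -0.28 to 0.03 spans 0.826-fold to 1.02-fold of Control. Without Control replicate 1 the log2 change was -0.19 and passed (edgeR adjusted p = 0.0130), and with upper-quartile scaling it was also -0.19 (edgeR adjusted p = 0.0350). Jag1 made up 99.8% ± 0.227 of the summed FPKM of the 3 ligands in Control and 98.9% ± 0.129 in rShh.

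Jag2 and Dll1 had few counts. Jag2 (ENSRNOG00000013927, chromosome 6, 137711155 to 137733026, minus strand), the second Jagged ligand, had 4, 9 and 0 counts in Control and 40, 19 and 14 in rShh. Every rShh library lay above every Control library, but the spread within each group was wide. The log2 change of 2.17 (SE 0.92) did not pass (edgeR adjusted p = 0.0641). Dll1 (ENSRNOG00000059984, chromosome 1, 57318708 to 57327379, minus strand), a Delta-like ligand, had 0, 9 and 0 counts in Control and 8, 36 and 34 in rShh. Control replicate 2 lay above rShh replicate 1, so the groups overlapped. The log2 change of 2.75 (SE 1.14) did not pass (edgeR adjusted p = 0.0595). Leaving out Control replicate 2 gave an edgeR adjusted p of 0.0429 for Jag2 and 0.00791 for Dll1, and Dll1 also passed with the replicate number as a block (edgeR adjusted p = 0.0463). A count of 0 allows up to 3 counts, which is 0.0530 to 0.0591 CPM in the Control libraries, a limit that covers counting error only.

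**Figure D3:**
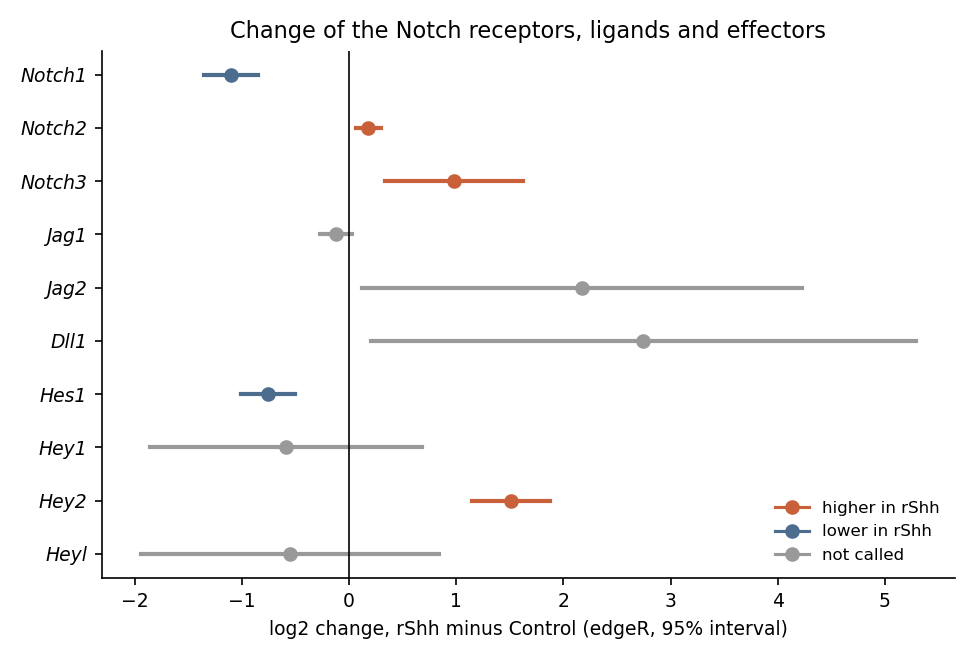
Log2 change of each member in rShh against Control from the edgeR fit (point) with its 95% interval (line); colours show genes that passed the adjusted threshold higher or lower in rShh, and grey those that did not. The intervals of Notch1, Notch2, Jag1 and Hes1 are narrow, while those of Jag2, Dll1, Hey1 and Heyl, which had at most 46 counts in any library, are several log2 units wide.

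The effectors parted ways, with Hes1 lower and Hey2 higher. Hes1 (ENSRNOG00000001720, chromosome 11, 74312806 to 74315248, minus strand) encodes a repressor that is a standard readout of Notch activity and also answers to other pathways. It was at 20.6, 25.5 and 26.0 CPM in Control and at 15.4, 13.3 and 13.9 in rShh. All rShh libraries lay below the lowest Control library. The mean was 1.69-fold lower in rShh (log2 change -0.76, SE 0.11, edgeR adjusted p = 0.000233). In a test against a change of 1.5-fold Hes1 did not pass (edgeR adjusted p = 0.0952).

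Hey2 (ENSRNOG00000013364, chromosome 1, 29191192 to 29201531, plus strand), a repressor known from heart and vessel development, had 122, 118 and 106 counts in Control and 374, 417 and 432 in rShh. These are 2.16, 2.20 and 2.09 CPM against 5.80, 5.99 and 6.60. The Control libraries were nearly alike and every rShh library was well above them. The mean rose 2.85-fold (log2 change 1.51, SE 0.16, edgeR adjusted p = 2.49e-05). Hey2 also passed with any 1 library left out and in a test against a change of 1.5-fold, which 22.1% of all genes tested passed. Of the members, Notch1 was the other that passed that stricter test.

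Within each library, the FPKM ratio of Hes1 to Hey2 was 17.8, 21.5 and 23.3 in Control and 4.92, 4.13 and 3.90 in rShh. The lowest Control ratio was above the highest rShh ratio. The means were 20.9 ± 2.80 and 4.31 ± 0.535, a 4.84-fold difference (two-sided exact permutation p = 0.1, the smallest possible here). Hes1 and Hey2 each already separated the groups, in opposite directions. The p of their ratio was thus fixed in advance and adds no support to their calls. Hey2 made up 4.44% ± 0.553 of the summed FPKM of the 4 effectors in Control and 18.2% ± 1.92 in rShh, and Hes1 made up 91.5% ± 2.15 and 77.9% ± 1.10. Of the 3 genes whose upstream stretches are shown above, Hes1 fell, Hey2 rose and Dll1 did not pass.

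Hey1 and Heyl stayed at low counts in both groups. Hey1 (ENSRNOG00000011593, chromosome 2, 95320283 to 95322696, plus strand), a close relative of Hey2, had 46, 14 and 41 counts in Control and 34, 29 and 20 in rShh. Control replicate 2 was the lowest of all 6, with an exact Poisson 95% interval of 7.65 to 23.5 counts that does not reach the other Control counts. The log2 change of -0.59 (SE 0.57) did not pass (edgeR adjusted p = 0.397), and its 95% interval spans 0.275-fold to 1.61-fold of Control. Heyl (ENSRNOG00000015318, chromosome 5, 140923914 to 140940905, plus strand), the third Hey repressor, had 15, 26 and 17 counts in Control and 24, 18 and 7 in rShh. Its groups overlapped as well, and the log2 change of -0.55 (SE 0.63) did not pass (edgeR adjusted p = 0.471). The 95% interval for Heyl spans 0.259-fold to 1.79-fold of Control.

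On the FPKM scale, the order of levels in Control was Jag1 (14.7 ± 0.995), Hes1 (13.9 ± 1.59), Notch2 (11.8 ± 0.561), Notch1 (1.32 ± 0.0669), Hey2 (0.668 ± 0.0215), Hey1 (0.543 ± 0.277), Notch3 (0.161 ± 0.0284), Heyl (0.0632 ± 0.0209), Jag2 (0.0142 ± 0.0152) and Dll1 (0.0121 ± 0.0209). Among neighbours in that order, the values of Jag1 and Hes1, Hes1 and Notch2, Hey2 and Hey1, and Jag2 and Dll1 overlapped. In rShh the order was Jag1 (13.6 ± 0.258), Notch2 (13.5 ± 0.490), Hes1 (8.27 ± 0.489), Hey2 (1.93 ± 0.147), Notch1 (0.622 ± 0.0574), Hey1 (0.364 ± 0.0954), Notch3 (0.320 ± 0.0878), Dll1 (0.0873 ± 0.0525), Jag2 (0.0662 ± 0.0389) and Heyl (0.0432 ± 0.0231). There the values of Jag1 and Notch2, Hey1 and Notch3, Dll1 and Jag2, and Jag2 and Heyl overlapped. Notch1 stood above Hey2 in every Control library and below it in every rShh library.

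The isoform table held a single transcript for 9 of the members, so its values repeat those of the genes. Notch2 had 2 transcripts. The long one of 34 exons and 10535 nt took 99.9% of its counts, while a short one of 2 exons and 1261 nt at the start of the gene had 3 to 8 counts per library. Tested among 18180 isoforms, of which 45.1% passed, 3 of the 10 member isoforms tested rose and 2 fell, for the same genes as above (edgeR adjusted p = 0.0297 for the long Notch2 transcript and 0.0433 for that of Notch3).

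The rest of the pathway was looked up by role from a list of 61 symbols, 51 of which had a row. Of the 48 tested, 16 rose and 18 fell by the edgeR test, 70.8% in all beside 60.3% of all genes, and 14 did not pass. Their median log2 change was -0.09. Notch4, the endothelial Notch receptor, rose from 1.02 ± 0.397 to 3.64 ± 0.189 CPM (edgeR adjusted p = 0.000309), with 48, 40 and 75 counts in Control and 239, 263 and 224 in rShh. Of 8 endothelial markers looked up, Pecam1, Cdh5, Kdr and Emcn had no row. Tek fell from 5.71 ± 0.906 to 1.76 ± 0.0788 CPM, Vwf did not pass, and Tie1 and Cldn5 had at most 4 counts in a library. The summed level of the 4 markers found was 0.873 to 1.26 FPKM in Control and 0.341 to 0.364 in rShh. The part of endothelial cells in the change of Notch4 was not tested. Dll3 had 14 counts or fewer in every library and was not tested, and Dll4 had no row.

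**Figure D4:**
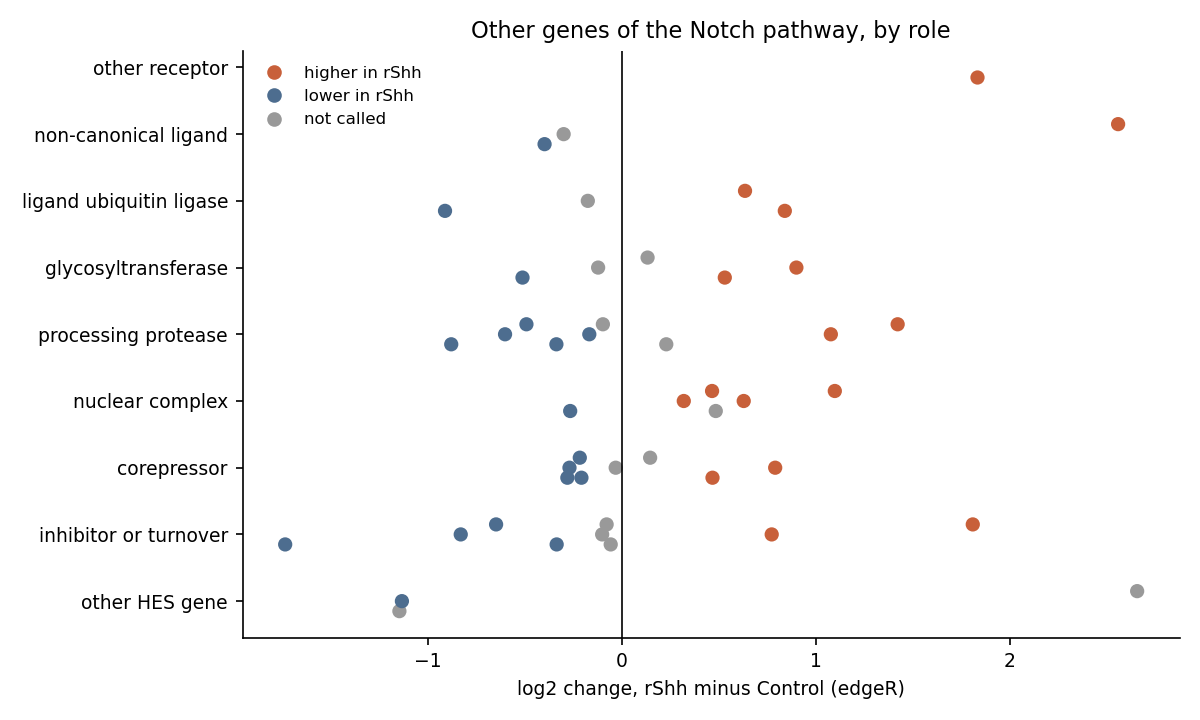
Log2 change in rShh against Control (edgeR) for the 48 other pathway genes tested, in a row for each role; each point is a gene, coloured where it passed the adjusted threshold, and vertical offsets only keep points apart. Most roles hold genes on both sides of 0.

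Of the 6 genes of the nuclear complex tested, 4 rose and 1 fell, beside 31.5% and 28.8% of all genes. Rbpj itself (chromosome 14, 59658935 to 59735450) had 7789, 6576 and 5434 counts in Control and 16810, 19244 and 16308 in rShh. Every rShh library was far above the Control libraries. The mean rose 2.14-fold, with 122 ± 15.3 CPM in Control and 262 ± 13.8 in rShh (log2 change 1.10, SE 0.09, edgeR adjusted p = 2.58e-06). The coactivator Maml1 went from 38.2 ± 4.74 to 31.8 ± 2.11 CPM and just passed (edgeR adjusted p = 0.0376). That call was lost without Control replicate 2 or without any 1 of the 3 rShh replicates (edgeR adjusted p = 0.0530 to 0.149). Among corepressors, 2 of 8 rose and 4 fell, beside the same shares of all genes. Cir1, which binds Rbpj, rose from 15.6 ± 0.533 to 26.9 ± 0.691 CPM, and Spen, which recruits deacetylases to Rbpj, fell from 74.2 ± 5.50 to 61.5 ± 1.07.

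Of 9 proteases and subunits that process the receptor, 2 rose and 5 fell, beside 60.3% of all genes that passed in either direction. The 2 that rose were the ADAM sheddases that make the outer cut: Adam17 rose 2.68-fold, from 65.4 ± 7.65 to 175 ± 4.17 CPM (edgeR adjusted p = 2.48e-07), and Adam10 rose 2.11-fold, from 38.7 ± 6.21 to 81.7 ± 2.23. Among those that fell were subunits of gamma-secretase, which makes the inner cut: Psen2, from 20.0 ± 0.798 to 10.9 ± 0.643 CPM, and Ncstn, Aph1a and Psenen, with log2 changes of -0.17, -0.60 and -0.49. Adam10, Ncstn, Aph1a and Psenen were named after their values were seen.

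Enzymes that add sugars to the receptor moved both ways, with 2 of 5 higher and 1 lower, beside 31.5% and 28.8% of all genes tested. Lfng, a Fringe glycosyltransferase that tunes which ligand a receptor hears, rose from 4.67 ± 0.654 to 8.71 ± 0.422 CPM, and Pofut1, which adds the fucose that Fringe extends, fell from 71.6 ± 3.44 to 50.1 ± 0.394. Of 4 ubiquitin ligases of the ligands, 2 rose and 1 fell, beside the same shares of all genes. Mib1 rose from 21.9 ± 3.50 to 34 ± 1.59 CPM and Mib2 fell from 69.4 ± 7.40 to 36.9 ± 1.79. Dner, a transmembrane protein described as a non-canonical ligand, rose 5.90-fold, from 2.50 ± 0.186 to 14.7 ± 0.718 CPM (edgeR adjusted p = 1.15e-07). Ccn3, a secreted matrix protein reported to bind Notch, fell from 242 ± 49.6 to 183 ± 5.31. Of 9 genes of inhibition or turnover, 2 rose and 4 fell, beside the same shares of all genes. Itch, a ubiquitin ligase of the receptor, rose from 31.4 ± 5.83 to 53.7 ± 1.26 CPM. Numbl, a relative of the Notch inhibitor Numb, fell from 127 ± 11.1 to 71.5 ± 2.81. Of the other Hes genes, Hes6, which antagonises Hes1, fell from 31.4 ± 5.57 to 14.3 ± 0.408 CPM, and Hes5 had 0, 3 and 0 counts in Control and 0 in each rShh library.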

How the data were processed

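Poly(A) RNA with an integrity number above 7.0 was read in pairs of 150 nt, per the labels' protocols. The submitters' processing notes name HISAT2 2.0.4, StringTie 1.3.4d, edgeR, DESeq2 and cutadapt 1.9 without their roles. The genome build and the counting's strand setting were not given in the sources used here. The authors deposited unnormalized counts and FPKM values per gene and per isoform, per the file headers. Counts were tested with edgeR 4.0.16 in R 4.3.3: filterByExpr (minimum count 10), TMM scaling, glmQLFit and glmQLFTest with group as the only term, two-sided, with Benjamini-Hochberg adjustment and a threshold of 0.05. CPM values are TMM-scaled. Intervals are 95% and come from the fit; Poisson intervals and floors of 3 counts cover counting error only. DESeq2 1.42.0 and limma 3.58.1 on log2(FPKM + 1) served as alternatives, and the fits were tested on simulated data. Replicates within a group differed beyond sampling noise (chi-square per degree of freedom 10.5 to 50.5 over genes with at least 100 counts in the pair), so none was counted as a repeat. The members and gene lists were chosen with earlier results of these data known. The text names all 10 members, in each role of the wider pathway the gene with the smallest p in each direction among those called, and Rbpj, Notch4, Dll4, Dll3 and Hes5; others are said to be named after their values were seen. No library was left out of the tests. Not every gene of the pathway list is reported here by name. The only row of the gene table overlapping a member is AABR07065617 within Jag2, with at most 1 count.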

Additional observations from a re-analysis of the deposited data

How the results depend on the processing

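Of 142 refits of single members under other settings, none turned the direction, 130 kept the side of the threshold, 7 lost the call and 5 gained it; for the other pathway genes named, 16 of 313 lost it, 3 gained it and none turned. With libraries left out, the number of members higher in rShh ran from 1 to 5 and of member isoforms higher from 1 to 2, against 3 for both with all libraries. A test against 1.5-fold called 1 member higher (Hey2) and 1 lower (Notch1), 8 and 5 of the other pathway genes, and 2167 and 1091 of all genes, against 4657 and 4257 for any change. Limma on log2(FPKM + 1) or log2(FPKM + 0.1) tested only the 4 members whose mean reached 1 FPKM and called 1 lower (1 lower among isoforms), fewer than 2 because Notch1 fell below that minimum. Same-numbered samples did not deviate together (correlations of -0.0585 to -0.0243, and 0 of the 6 libraries correlated best with its own number). No pairing by number was seen, but these correlations cannot show whether same-numbered samples were prepared together. A replicate block called 4 members higher, with Dll1 added (edgeR adjusted p = 0.0463), and 1 member isoform higher against 3; the cause was not tested. In the test against 1.5-fold Notch2, Notch3 and Hes1 lost their calls (edgeR adjusted p = 1, 0.135 and 0.0952). Depth limits Jag2, Dll1, Hey1 and Heyl, with 9 to 101 counts summed over a group.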

Other observations

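Further pathway genes, named after their values were seen, moved strongly. Nrarp, a small feedback inhibitor that Notch activity is known to induce, had 43, 27 and 17 counts in Control and 109, 163 and 105 in rShh. Every rShh library lay above every Control library, and Nrarp rose 3.53-fold, from 0.533 ± 0.214 to 1.88 ± 0.403 CPM (edgeR adjusted p = 0.00232, and 0.00015 to 0.018 over the alternatives, which include DESeq2 and limma). Dtx4, a Deltex ubiquitin ligase, was 3.34-fold lower in rShh, falling from 4.83 ± 0.915 to 1.45 ± 0.108 CPM (edgeR adjusted p = 6.37e-05, and at most 0.00094 over the alternatives).

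Hes2 had 13, 0 and 0 counts in Control and 50, 35 and 16 in rShh and did not pass (edgeR adjusted p = 0.0593). Leaving out Control replicate 1 gave an edgeR adjusted p of 0.00204, a replicate block gave 0.0323, and limma on log2(FPKM + 1) without a filter gave 0.0348.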
